A study of Mus musculus with 6 samples.

Results

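The Hox genes Hoxa9, Hoxa10, Hoxa11, Hoxa13, Hoxd8, Hoxd9, Hoxd10, Hoxd11, Hoxd12 and Hoxd13 encode the homeodomain transcription factors of the posterior ends of the HoxA and HoxD clusters. They were taken by name, whatever their counts, and make 10 of the 27179 genes in the count tables. RNA of 3 immortalized mouse embryonic fibroblast lines of strain C57BL/6 was selected for poly-A and read from stranded libraries in single-end runs reading 50 bases, each line being represented by 2 independent RNA preparations. Cry/Per_KO cells are cry1-/-, cry2-/-, per1-/- and per2-/-, and Cry/Per/Nr1d_KO cells, which are 1 clone isolated after CRISPR/Cas9 mutation of the Cry/Per_KO line, are nr1d1-/- and nr1d2-/- as well. Per/Nr1d_KO cells are per1-/-, per2-/-, nr1d1-/- and nr1d2-/- and keep Cry1 and Cry2. Loss of Per1 and Per2, repressors of the circadian clock like the Cry genes, is thus shared by all 6 libraries, and no wild-type cells were sequenced. The cells grew in DMEM with fetal bovine serum, and RNA was taken before they were fully confluent. Since each genotype is a single line, genotype and line cannot be told apart, and p-values measure the spread between RNA preparations of a line.

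The labels give a genotype for each library that the name of its deposited counts contradicts for 2 pairs of libraries, in that each pair carries the genotype of Cry/Per_KO or Cry/Per/Nr1d_KO and the name of the other. The genotypes were followed here, and -labelled after a line's name marks these 4 libraries. With the names exchanged, every value below stays with its pair of libraries, the direction between these pairs turns, and each comparison of Per/Nr1d_KO with one pair becomes the comparison with the other. The 6 genes mutated in these lines, Cry1, Cry2, Per1, Per2, Nr1d1 and Nr1d2, had between 1004 and 9337 normalized counts (counts scaled to a common library size) each in every library, so none was lost from the RNA. All 6 were higher in both Cry/Per_KO-labelled libraries than in both Cry/Per/Nr1d_KO-labelled ones. As background, NR1D proteins repress Cry1 and Arntl, the gene of BMAL1. Cry1 had 5323 and 5478 normalized counts in the Cry/Per_KO-labelled libraries, 1698 and 1724 in the Cry/Per/Nr1d_KO-labelled ones, and 1535 and 1592 in Per/Nr1d_KO cells, which lack NR1D but keep the repressor CRY. Arntl, chosen after its values were seen, had 2176 and 2208 normalized counts in the Cry/Per_KO-labelled libraries, 1191 and 1170.5 in the Cry/Per/Nr1d_KO-labelled ones, and 2493 and 2455 in Per/Nr1d_KO cells. The log2 fold changes of the Cry/Per_KO-labelled over the Cry/Per/Nr1d_KO-labelled libraries were 1.66 for Cry1 (adjusted p = 9.6e-13) and 0.89 for Arntl (adjusted p = 2.4e-09, edgeR quasi-likelihood). The order of both genes between the pairs goes against the genotypes given for the 4 libraries and goes with the names of their counts. Every direction below between the 4 libraries is that of the pairs as labelled, and is turned between the cell lines if the names hold.

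As background, Hox genes lie in clusters and are transcribed along the body axis and the limb in the order of their position. In the limb bud the posterior Hoxa and Hoxd genes are switched on in succession. Genes in the middle of the series shape the upper arm and forearm, and those at the posterior end shape the hand and digits. Fibroblasts in culture usually keep the Hox pattern of the place in the body they came from, so the set of Hox genes a line transcribes is read as a record of its position of origin. The proteins bind DNA together with TALE cofactors of the Pbx, Meis and Pknox families.

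The promoters of the genes at the posterior ends are shown first, because the clock proteins missing from these lines act through 2 short elements. Whether either element has a part in the levels of the 10 genes was not tested. CLOCK-BMAL1, the activator that CRY and PER repress, binds the E-box CACGTG, and NR1D proteins bind elements built on AGGTCA. Both were searched on both strands (CACGTG reads the same on either) in the 250 bases before each start in RefSeq's GRCm38.p6 annotation, the assembly of mm10. All 10 genes matched, with 12 annotated starts. CACGTG occurred in 3 of the 12 windows, against 6.02% of 32851 windows in the genome, and AGGTCA in 2 of the 12, against 14.0%. CACGTG itself contains a CpG dinucleotide, and the genome windows were not matched for CpG. The windows with CACGTG held 31 CpG in Hoxd13, 20 in the second start of Hoxd11 and 20 in Hoxd10, against a genome median of 6. Enrichment of either element was not tested. The 4 windows below hold no annotated exon. Hoxd13 and Hoxa13 are at the posterior ends of their clusters, and Hoxd10 and the second start of Hoxd11 are the other windows with an E-box. The bases are written 5′ to 3′ on the strand of the gene, the last base being the one before the start, and capitals mark CACGTG and AGGTCA.
Hoxd13 promoter, chr2:74667975-74668224, plus strand: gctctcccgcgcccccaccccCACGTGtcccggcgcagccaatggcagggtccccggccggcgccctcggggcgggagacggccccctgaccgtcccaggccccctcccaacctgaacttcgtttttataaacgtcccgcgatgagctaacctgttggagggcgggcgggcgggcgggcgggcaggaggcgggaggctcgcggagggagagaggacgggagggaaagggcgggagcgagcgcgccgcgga
Hoxd11 promoter (second start), chr2:74682073-74682322, plus strand: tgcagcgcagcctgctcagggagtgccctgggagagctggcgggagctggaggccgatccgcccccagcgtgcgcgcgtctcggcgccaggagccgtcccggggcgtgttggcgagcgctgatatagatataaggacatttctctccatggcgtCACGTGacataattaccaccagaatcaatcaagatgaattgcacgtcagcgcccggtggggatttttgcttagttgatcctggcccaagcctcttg
Hoxd10 promoter, chr2:74691641-74691890, plus strand: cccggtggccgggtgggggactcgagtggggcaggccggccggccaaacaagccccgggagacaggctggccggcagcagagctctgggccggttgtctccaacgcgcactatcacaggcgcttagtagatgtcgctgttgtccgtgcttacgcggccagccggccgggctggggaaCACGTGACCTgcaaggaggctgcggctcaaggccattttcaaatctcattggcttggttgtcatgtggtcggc
Hoxa13 promoter, chr6:52260881-52261130, minus strand: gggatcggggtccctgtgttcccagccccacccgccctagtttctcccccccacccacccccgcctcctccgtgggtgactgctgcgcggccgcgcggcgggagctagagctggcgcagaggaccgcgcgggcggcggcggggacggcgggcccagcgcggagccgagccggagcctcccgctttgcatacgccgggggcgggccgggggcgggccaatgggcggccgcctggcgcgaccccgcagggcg

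In Hoxd13 the E-box began 229 bases before the start, in the second start of Hoxd11 96 bases, and in Hoxd10 73 bases. In Hoxd10 AGGTCA followed on the opposite strand and shared 2 bases with the E-box, which gives the run of 10 capitals. The other AGGTCA stood 135 bases before the start of Hoxd8. No window of a Hoxa gene held either element. The windows of Hoxa13 and Hoxd13 were rich in CpG, with 35 CpG dinucleotides and 80% GC in Hoxa13 and 31 and 74.4% in Hoxd13, where the median window of the genome held 6 CpG and 52.4% GC. A match of letters is a description, not a bound site.

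The 10 genes fell into the same order in all 6 libraries. Per/Nr1d_KO cells had the most RNA of each, the Cry/Per/Nr1d_KO-labelled libraries had less, and the Cry/Per_KO-labelled libraries had almost none. Over the 10 genes together, the Cry/Per_KO-labelled libraries held 3 and 8 counts, the Cry/Per/Nr1d_KO-labelled ones held 2402 and 2048, and the Per/Nr1d_KO libraries 18199 and 27837. This order, without overlap between libraries, was shown by 10 of 10 genes, and by 17% of the 11934 genes tested. Values from here on are normalized counts, which are counts scaled by TMM factors to a common effective library size, their mean. Where no read was counted, the upper limit is 3 counts per library (2.37 to 3.80 normalized counts), and this floor covers counting error only. In RNA from whole cultures, fewer cells transcribing a gene and less RNA per cell cannot be told apart.

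**Figure D1:**
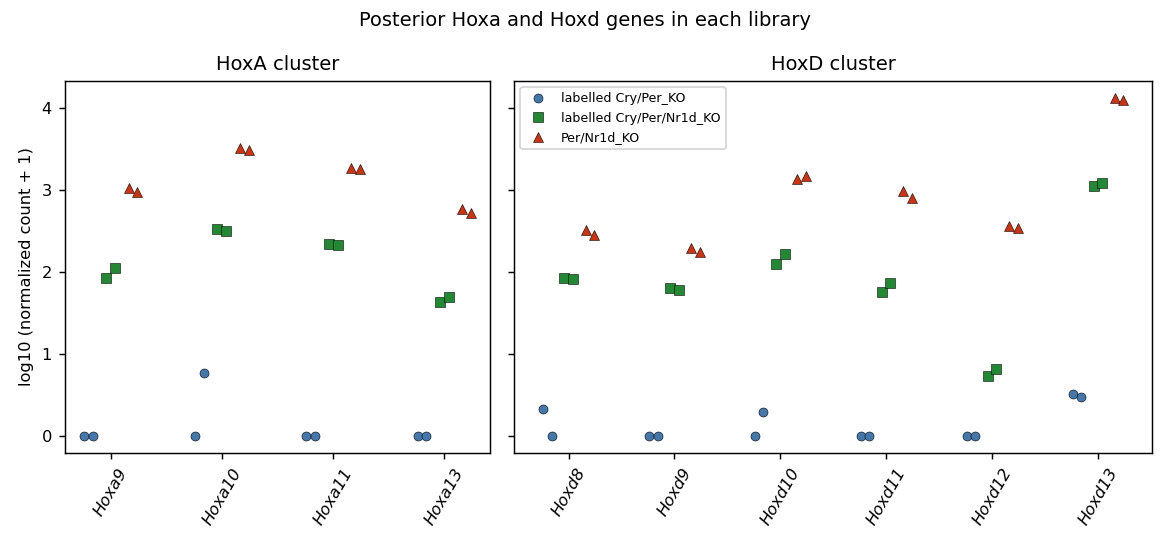
Normalized counts of the 10 genes in each library, as log10 of the normalized count plus 1, in order of position within the HoxA and HoxD clusters, with 1 point per library. The points of Per/Nr1d_KO cells lie above the Cry/Per/Nr1d_KO-labelled ones for every gene, and the Cry/Per_KO-labelled ones lie at or near 0, the highest being Hoxa10 at 4.91 normalized counts.

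Genes were tested across all 6 libraries with edgeR's quasi-likelihood test and called where the adjusted p (Benjamini-Hochberg) was under 0.05 and the log2 fold change was beyond 0.81 in size, the study's own limit on the fold. Of the 10 genes, 9 had the mean of 100 normalized counts required for testing, and the remaining one, Hoxd9, was tested with the limit lowered to a mean of 10. In Per/Nr1d_KO against the Cry/Per/Nr1d_KO-labelled libraries, 9 of 9 genes were called higher, where 11.3% of all genes tested were called higher, 9.35% lower and 20.7% in either direction. In the Cry/Per_KO-labelled libraries against the Cry/Per/Nr1d_KO-labelled ones, 9 of 9 were called lower, where 8.95% of all genes were called lower, 7.86% higher and 16.8% in either direction. In Per/Nr1d_KO against the Cry/Per_KO-labelled libraries, 9 of 9 were called higher, where 15.2% of all genes were called higher, 13.8% lower and 29% in either direction. These comparisons share libraries with one another, and a gene enters the test through its mean, which for 6 of the 9 reached 100 only through the Per/Nr1d_KO libraries, where they are highest. For Hoxa10, Hoxa11 and Hoxd13 it reached 100 over the other 4 libraries as well, at 165, 108 and 581. These means came almost wholly from the Cry/Per/Nr1d_KO-labelled pair, at 328, 216 and 1160, against 2.45, 0 and 2.09 in the Cry/Per_KO-labelled pair. These counts of calls therefore describe the genes and are given without a test over the list. The p-values given below for Hoxa9, Hoxa13, Hoxd8, Hoxd10, Hoxd11 and Hoxd12 belong to the genes that entered only through Per/Nr1d_KO, and are descriptions as well. So are those of Hoxa10, Hoxa11 and Hoxd13 between the Cry/Per_KO-labelled and Cry/Per/Nr1d_KO-labelled pairs. With no limit on the mean, the 20375 genes with a count, of the 27179 in the tables, were tested. Of the members, 10 of 10 were called in the same direction in each comparison. Among all genes tested in this way, 22.5%, 18.7% and 27.4% were called in either direction, with the comparisons in the order above. With the limit lowered to a mean of 10, 14770 genes were tested, and 26.5% were called in either direction in Per/Nr1d_KO against the Cry/Per/Nr1d_KO-labelled libraries, 22.4% between the Cry/Per_KO-labelled and Cry/Per/Nr1d_KO-labelled libraries, and 33.8% in Per/Nr1d_KO against the Cry/Per_KO-labelled libraries.

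The question behind comparing Per/Nr1d_KO with Cry/Per/Nr1d_KO cells was what CRY proteins change in the absence of PER and NR1D, and that behind comparing Cry/Per_KO with Cry/Per/Nr1d_KO cells was what NR1D proteins change in the absence of CRY and PER. For the posterior Hoxa genes both comparisons, as labelled, gave large differences. If the names of the counts hold, the CRY comparison is that of Per/Nr1d_KO with the Cry/Per_KO-labelled libraries, and the direction of the NR1D comparison turns. In either case line and genotype cannot be told apart, so the differences are not shown to be effects of CRY or NR1D. The genes lie on the minus strand of chromosome 6, with Hoxa13 at the posterior end.

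Hoxa9 (Entrez Gene 15405, chr6:52223097-52227370) acts in the upper limb skeleton together with Hoxd9 and is also a factor of blood progenitors. It had 1044 and 953 normalized counts in Per/Nr1d_KO cells, 82.6 and 109.9 in the Cry/Per/Nr1d_KO-labelled libraries, and 0 in both Cry/Per_KO-labelled libraries. The 3 pairs of libraries did not overlap, and the Cry/Per/Nr1d_KO-labelled libraries stood at 9.64% of the level in Per/Nr1d_KO cells. The log2 fold change of Per/Nr1d_KO over the Cry/Per/Nr1d_KO-labelled libraries was 3.39 (SE 0.13, adjusted p = 6.0e-12, edgeR quasi-likelihood), a 10.4-fold difference with a 95% counting interval from 8.99 to 12.2. Against the floor of 3 counts per library, Hoxa9 was at least 30.6-fold higher in the Cry/Per/Nr1d_KO-labelled libraries than in the Cry/Per_KO-labelled ones (adjusted p = 9.3e-09, edgeR quasi-likelihood).

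Hoxa10 (Entrez Gene 15395, chr6:52231197-52240854), which patterns the upper leg and the uterus, had the most RNA per exon length of the posterior Hoxa genes in the lines that transcribed them. It had 3208 and 3091 normalized counts in Per/Nr1d_KO cells, 337 and 318 in the Cry/Per/Nr1d_KO-labelled libraries, and 0 and 4.91 in the Cry/Per_KO-labelled ones. Its 5 counts in 1 Cry/Per_KO-labelled library were the most that any of the 10 genes had in these libraries. The fold of Per/Nr1d_KO over the Cry/Per/Nr1d_KO-labelled libraries was 9.62 (counting interval from 8.81 to 10.4), a log2 fold change of 3.26 (SE 0.093, adjusted p = 5.5e-14, edgeR quasi-likelihood). The ratio between the Cry/Per/Nr1d_KO-labelled libraries and the Cry/Per_KO-labelled ones was 133, and with 5 counts below the line its counting interval ran from 53.7 to 389 (adjusted p = 1.6e-11, edgeR quasi-likelihood). The fitted log2 fold change of Hoxa10 between these pairs moved from -6.91 to -6.03 without the library at 0, and to -11.4 without the library holding the 5 counts.

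Hoxa11 (Entrez Gene 15396, chr6:52242105-52245810) is needed with Hoxd11 for the bones of the forearm. It had 1856 and 1782 normalized counts in Per/Nr1d_KO cells, 218 and 214 in the Cry/Per/Nr1d_KO-labelled libraries, and 0 in both Cry/Per_KO-labelled libraries. The libraries of a pair differed little beside the gaps between pairs. The fold of Per/Nr1d_KO over the Cry/Per/Nr1d_KO-labelled libraries was 8.42 (7.59 to 9.27), a log2 fold change of 3.07 (SE 0.087, adjusted p = 2.4e-13, edgeR quasi-likelihood), and the Cry/Per/Nr1d_KO-labelled libraries were at least 68.7-fold above the Cry/Per_KO-labelled ones (adjusted p = 3.1e-11). Of the exon bases of Hoxa11, 35.0% lie opposite exons of Hoxa11os, an antisense transcript of the locus. Hoxa11os itself had normalized counts of 1522 and 1557, 129.6 and 105.5, and 0 and 0 with the groups in that order. Both transcripts thus followed the same order, and whether the counting separated the strands is not stated.

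Hoxa13 (Entrez Gene 15398, chr6:52258853-52260880), a gene of the hand, foot and genital tract, had 579 and 525 normalized counts in Per/Nr1d_KO cells, 42.6 and 48.9 in the Cry/Per/Nr1d_KO-labelled libraries, and 0 in both Cry/Per_KO-labelled libraries. The pairs again did not overlap. The fold of Per/Nr1d_KO over the Cry/Per/Nr1d_KO-labelled libraries was 12.1 (9.71 to 15.0), a log2 fold change of 3.59 (SE 0.14, adjusted p = 1.3e-11, edgeR quasi-likelihood), and the Cry/Per/Nr1d_KO-labelled libraries were at least 14.6-fold above the Cry/Per_KO-labelled ones (adjusted p = 1.6e-07).

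The posterior Hoxd genes lie on the plus strand of chromosome 2, where Hoxd13 is at the posterior end and Hoxd8 is nearest the anterior genes. They showed the same order of groups, with a smaller step between Per/Nr1d_KO and the Cry/Per/Nr1d_KO-labelled libraries at Hoxd8 and Hoxd9 and a much larger one at Hoxd12.

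Hoxd13 (Entrez Gene 15433, chr2:74668225-74671603), mutated in inherited fusion and duplication of digits, had the most RNA per exon length of all 10 genes. It had 13199.7 and 12547 normalized counts in Per/Nr1d_KO cells, 1122 and 1198 in the Cry/Per/Nr1d_KO-labelled libraries, and 2.23 and 1.96 in the Cry/Per_KO-labelled ones. It was the one gene with counts in both Cry/Per_KO-labelled libraries, 2 in each, which is below the floor. The fold of Per/Nr1d_KO over the Cry/Per/Nr1d_KO-labelled libraries was 11.1 (10.6 to 11.6), a log2 fold change of 3.47 (SE 0.055, adjusted p = 4.9e-17, edgeR quasi-likelihood). The ratio between the Cry/Per/Nr1d_KO-labelled libraries and the Cry/Per_KO-labelled ones was 554, with a counting interval from 216 to 2035 (adjusted p = 3.4e-15, edgeR quasi-likelihood).

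Hoxd12 (Entrez Gene 15432, chr2:74675013-74677705), a digit gene with Hoxd13 as its neighbour, departed furthest from the rest. It had 365 and 340.1 normalized counts in Per/Nr1d_KO cells, 4.44 and 5.55 in the Cry/Per/Nr1d_KO-labelled libraries, and 0 in both Cry/Per_KO-labelled libraries. In the Cry/Per/Nr1d_KO-labelled libraries this was 5 counts each, little above the floor. The fold of Per/Nr1d_KO over the Cry/Per/Nr1d_KO-labelled libraries was 70.6 (38.3 to 148), a log2 fold change of 6.12 (SE 0.23, adjusted p = 6.9e-12, edgeR quasi-likelihood). The Cry/Per/Nr1d_KO-labelled libraries were at least 1.59-fold above the Cry/Per_KO-labelled ones (adjusted p = 0.0032, edgeR quasi-likelihood), the largest p of these calls, which rests on 10 counts.

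Hoxd11 (Entrez Gene 15431, chr2:74679558-74687016), the partner of Hoxa11 in the forearm, had 957 and 791 normalized counts in Per/Nr1d_KO cells, 56.8 and 72.2 in the Cry/Per/Nr1d_KO-labelled libraries, and 0 in both Cry/Per_KO-labelled libraries. Hoxd10 (Entrez Gene 15430, chr2:74684273-74695106), which has a part in the hindlimb, had normalized counts of 1339.7 and 1480.2, 123 and 167, and 0 and 0.98 with the groups in that order. Both genes kept the order of the rest, with no overlap between groups. For Hoxd11 the fold of Per/Nr1d_KO over the Cry/Per/Nr1d_KO-labelled libraries was 13.6 (11.2 to 16.2), with a log2 fold change of 3.77 (SE 0.15, adjusted p = 9.8e-12, edgeR quasi-likelihood). For Hoxd10 it was 9.72 (8.86 to 11.3), with a log2 fold change of 3.30 (SE 0.12, adjusted p = 1.1e-12, edgeR quasi-likelihood). Hoxd11 was at least 20.5-fold higher in the Cry/Per/Nr1d_KO-labelled libraries than in the Cry/Per_KO-labelled ones (adjusted p = 1.3e-07), and for Hoxd10 the ratio was 295 over a single count, with a counting interval from 48.7 to 10833 (adjusted p = 1.1e-09). Without the library holding that count the fitted log2 fold change of Hoxd10 moved from -7.79 to -10.2, and without the other it was -7.02. The records of these neighbours overlap, and 10.8% of the exon bases of Hoxd11 and 5.73% of those of Hoxd10 lie in exons of the annotated gene Gm28309, so reads there depend on how the counting assigned them.

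Hoxd9 (Entrez Gene 15438, chr2:74697763-74700208), the partner of Hoxa9, had 195 and 172 normalized counts in Per/Nr1d_KO cells, 62.1 and 59.97 in the Cry/Per/Nr1d_KO-labelled libraries, and 0 in both Cry/Per_KO-labelled libraries. Hoxd8 (Entrez Gene 15437, chr2:74704615-74707933) had normalized counts of 323 and 282, 83.5 and 81.1, and 1.11 and 0 with the groups in that order. In the Cry/Per/Nr1d_KO-labelled libraries, Hoxd9 and Hoxd8 stood at 33.3% and 27.2% of their level in Per/Nr1d_KO cells. The fold of Per/Nr1d_KO over the Cry/Per/Nr1d_KO-labelled libraries was 3.01 for Hoxd9 (2.41 to 3.65), with a log2 fold change of 1.57 (SE 0.17, adjusted p = 1.8e-07 with the lowered limit, edgeR quasi-likelihood). It was 3.68 for Hoxd8 (3.04 to 4.31), with a log2 fold change of 1.86 (SE 0.15, adjusted p = 1.3e-08, edgeR quasi-likelihood). Hoxd9 was at least 19.4-fold higher in the Cry/Per/Nr1d_KO-labelled libraries than in the Cry/Per_KO-labelled ones (adjusted p = 4.7e-09 with the lowered limit). For Hoxd8 the ratio was 148 over a single count, with a counting interval from 28.0 to 6276 (adjusted p = 8.0e-09). That count lies in 1 Cry/Per_KO-labelled library, and the fitted log2 fold change of Hoxd8 between these pairs moved from -6.99 to -9.40 without that library and to -6.06 without the other.

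**Figure D2:**
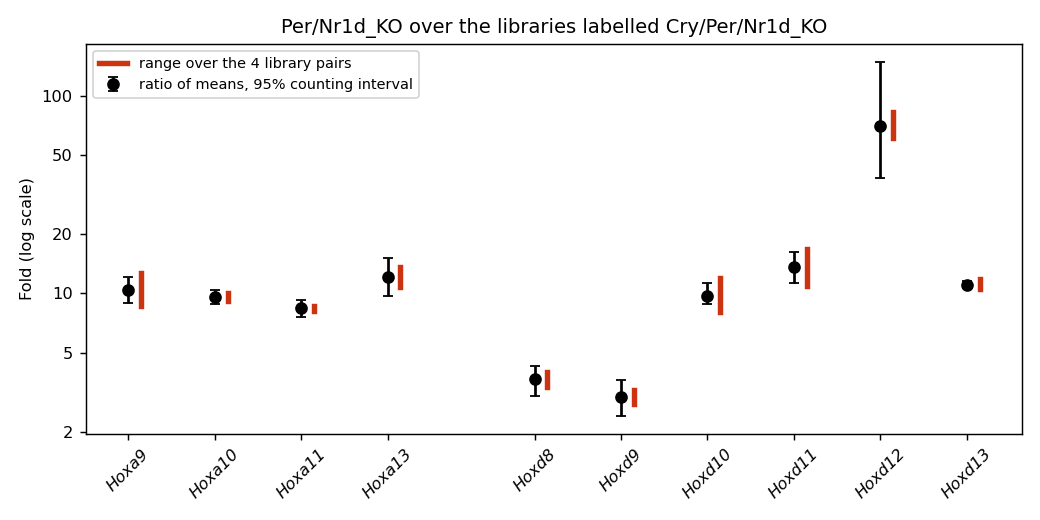
Fold of Per/Nr1d_KO over the Cry/Per/Nr1d_KO-labelled libraries for the 10 genes, on a log scale, in order of position within each cluster. Points are ratios of means with 95% counting intervals, and the thick bars span the 4 ratios between single libraries. The folds of 7 genes lie between 8.42 and 13.6, with Hoxd8 and Hoxd9 below at 3.68 and 3.01 and Hoxd12 above at 70.6.

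Set side by side in cluster order, the folds of Per/Nr1d_KO over the Cry/Per/Nr1d_KO-labelled libraries lay close together for all 4 posterior Hoxa genes, from 8.42 at Hoxa11 to 12.1 at Hoxa13. Among the Hoxd genes they were 3.68, 3.01, 9.72, 13.6, 70.6 and 11.1 from Hoxd8 to Hoxd13, so they rose from Hoxd9 to Hoxd12 and were lower again at Hoxd13. The counting intervals of Hoxd8 and Hoxd9 ended at 4.31 and 3.65, below the 7.59 at which the lowest of the other intervals began. That of Hoxd12 began at 38.3, above the 16.2 at which the highest of the others ended. The ranges over the 4 pairs of single libraries separated these genes in the same way, at 3.38 to 3.99 for Hoxd8, 2.77 to 3.25 for Hoxd9, 61.2 to 82.2 for Hoxd12 and 8.04 to 16.8 for the other 7. Differences between genes in their fold were not put to a test.

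The widest gap lay between Per/Nr1d_KO and the Cry/Per_KO-labelled libraries. For the 6 genes with 0 counts in both Cry/Per_KO-labelled libraries, Per/Nr1d_KO cells were at least 318-fold (Hoxa9), 579-fold (Hoxa11), 176-fold (Hoxa13), 58.4-fold (Hoxd9), 278-fold (Hoxd11) and 112-fold (Hoxd12) higher. For Hoxd13 the ratio was 6145, with a counting interval from 2395 to 22511, and for Hoxa10 it was 1283, from 515 to 3704. The fitted log2 fold change of Hoxa10 was 10.17, and it moved to 9.29 without the Cry/Per_KO-labelled library at 0 and to 14.6 without the one holding its 5 counts. For Hoxd10 and Hoxd8, each over a single count, the ratios were 2872 (490 to 108030) and 543 (102 to 22570). Without the library holding the count, their fitted log2 fold changes moved from 11.09 to 13.5 and from 8.86 to 11.3. Without the other Cry/Per_KO-labelled library they were 10.3 and 7.92. At this depth the 6 genes at 0 were not detectable in the Cry/Per_KO-labelled libraries.

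To compare levels between genes, normalized counts were divided by the exon length of each gene in GENCODE vM21, which may not be the annotation the authors counted. Per kilobase, Hoxd13 stood first in Per/Nr1d_KO cells at 5185 ± 186 (SD, n = 2) normalized counts, ahead of Hoxa10 at 963 ± 25.2. Hoxa11 at 795 ± 22.6 and Hoxd10 at 776 ± 54.7 came next and did not differ beyond their spread. Hoxa13 at 223 ± 15.6 and Hoxd11 at 208 ± 27.8 overlapped as well, and Hoxa9, Hoxd12, Hoxd8 and Hoxd9 followed, down to 86.0 ± 7.68 for Hoxd9. In the Cry/Per/Nr1d_KO-labelled libraries the first 4 places were held by the same genes, Hoxd13 at 467 ± 21.7, Hoxa10 at 100.2 ± 4.27, Hoxa11 at 94.4 ± 0.985 and Hoxd10 at 79.8 ± 16.8 normalized counts per kilobase. Below them the order changed. Hoxd8 at 30.0 ± 0.615 and Hoxd9 at 28.6 ± 0.721 moved up to places just below these 4, from the end of the order in Per/Nr1d_KO, and Hoxd12 was last at 1.97 ± 0.311. Hoxa13, Hoxa9 and Hoxd11, between 15.3 and 18.5, were not separated beyond their spread.

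**Figure D3:**
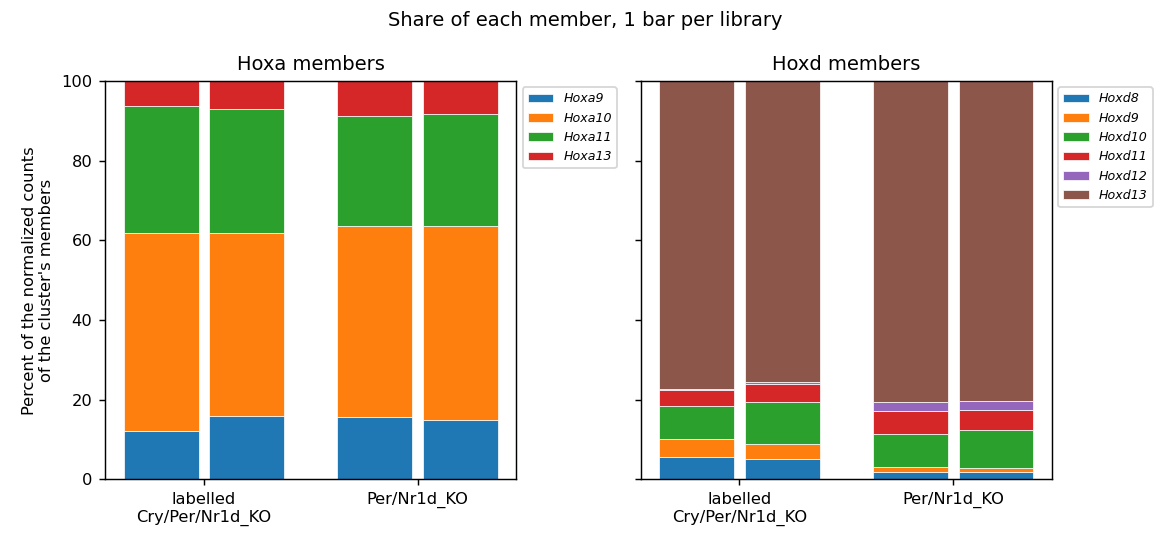
Share of each gene in the summed normalized counts of the 4 posterior Hoxa genes and of the 6 posterior Hoxd genes, with 1 bar per library, for the Cry/Per/Nr1d_KO-labelled libraries and Per/Nr1d_KO. Hoxa10 takes 47.8% and 48.3% of the Hoxa sum, Hoxd13 takes 76.5% and 80.5% of the Hoxd sum, and Hoxd12 is visible in Per/Nr1d_KO at 2.20%.

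The makeup of each set gives the same comparison without the overall level. Among the posterior Hoxa genes, Hoxa10 made 47.8% ± 2.57 (SD, n = 2) of the normalized counts in the Cry/Per/Nr1d_KO-labelled libraries and 48.3% ± 0.494 in Per/Nr1d_KO, a difference within the spread. Hoxa11 made 31.5% ± 0.676 and 27.9% ± 0.222, and Hoxa13 6.67% ± 0.571 and 8.46% ± 0.284. Among the posterior Hoxd genes, Hoxd13 made 76.5% ± 1.13 and 80.5% ± 0.155. Hoxd12 made 0.328% ± 0.0318 and 2.20% ± 0.0356 in the same order. Hoxd8 and Hoxd9 were the other way round, at 5.43% ± 0.443 and 4.03% ± 0.348 in the Cry/Per/Nr1d_KO-labelled libraries and 1.89% ± 0.120 and 1.15% ± 0.0636 in Per/Nr1d_KO. Hoxd11 made 4.24% ± 0.457 and 5.46% ± 0.547 in these groups. The libraries of the groups did not overlap for Hoxa11, Hoxa13, Hoxd8, Hoxd9, Hoxd11, Hoxd12 and Hoxd13 and overlapped for Hoxa9, Hoxa10 and Hoxd10, but an exact permutation test of 2 libraries against 2 cannot go below a two-sided p of 0.333. The shares of a set have a fixed sum, so those of its genes do not vary independently. Such shares are not defined over all genes, so this tally has no background beside it and is a description. The Cry/Per_KO-labelled libraries, with 11 counts in all, allow no such makeup.

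The anterior genes of the HoxA cluster did not share the absence of the posterior genes from the Cry/Per_KO-labelled libraries. Hoxa3, which patterns the pharyngeal arches, had 230.4 and 236 normalized counts in the Cry/Per_KO-labelled libraries, 34.6 and 34.4 in the Cry/Per/Nr1d_KO-labelled ones, and 109 and 90.0 in Per/Nr1d_KO cells. Hoxa5, needed for the lung, had normalized counts of 152 and 131, 70.1 and 92.2, and 329.5 and 268 with the groups in that order. In the Cry/Per_KO-labelled libraries these genes were thus present and stood above the Cry/Per/Nr1d_KO-labelled libraries, opposite to the posterior genes. Hoxa3 and Hoxa5 were called higher there, with log2 fold changes of 2.75 and 0.81 (adjusted p = 1.3e-09 and 0.00089, edgeR quasi-likelihood). With the lowered limit, Hoxa2 (1.24, adjusted p = 0.00070, edgeR quasi-likelihood) and Hoxa4 (1.49, adjusted p = 1.6e-05) were called higher as well. Hoxa6 was not called (0.70, adjusted p = 0.098, edgeR quasi-likelihood). In Per/Nr1d_KO against the Cry/Per/Nr1d_KO-labelled libraries, Hoxa3 and Hoxa5 were called higher with log2 fold changes of 1.498 and 1.88, and with the lowered limit Hoxa4, Hoxa6 and Hoxa7 with 2.25, 2.92 and 1.93. Hoxa2 was not called (0.25, adjusted p = 0.49 with the lowered limit, edgeR quasi-likelihood). The 5 anterior genes called thus moved in the direction of the posterior ones here, whose log2 fold changes were 3.07 to 3.59. The fold of Hoxa6 was 7.73, and its counting interval, from 5.02 to 11.9, overlapped those of Hoxa9, Hoxa10, Hoxa11 and Hoxa13. Its ratios between single libraries, 6.72 to 9.02, overlapped those of Hoxa9 (8.67 to 12.6) and Hoxa11 (8.19 to 8.66). They lay below those of Hoxa10 (9.16 to 10.1) and Hoxa13 (10.7 to 13.6). The differences were not tested.

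Hoxa7, the neighbour of Hoxa9, was where the direction turned. It had 13.4 and 23.6 normalized counts in the Cry/Per_KO-labelled libraries, 54.2 and 34.4 in the Cry/Per/Nr1d_KO-labelled ones, and 176 and 169.6 in Per/Nr1d_KO cells. It was called lower in the Cry/Per_KO-labelled libraries than in the Cry/Per/Nr1d_KO-labelled ones, with a log2 fold change of -1.26 (SE 0.32, adjusted p = 0.0016 with the lowered limit, edgeR quasi-likelihood). Hoxa7 was still detected in the Cry/Per_KO-labelled libraries, and the next gene, Hoxa9, was at 0. Measured as a share of the normalized counts of the HoxA genes analysed here, the posterior genes made 88.7% ± 0.508 (SD, n = 2) in Per/Nr1d_KO cells, 75.4% ± 0.585 in the Cry/Per/Nr1d_KO-labelled libraries, and 0% and 0.914% in the Cry/Per_KO-labelled libraries.

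In the HoxD cluster, the anterior genes were low in the Cry/Per_KO-labelled libraries as well. Hoxd1 had 0 counts in all 6 libraries. Hoxd3 had 10.7 and 13.3 normalized counts in the Cry/Per/Nr1d_KO-labelled libraries, 0 in both Cry/Per_KO-labelled libraries, and 1.27 and 0 in Per/Nr1d_KO cells. Hoxd4 had normalized counts of 38.2 and 56.6, 3.34 and 0.98, and 19.0 and 10.3 with the groups in that order. Hoxd3 and Hoxd4 therefore did not follow Hoxd8 to Hoxd13, being highest in the Cry/Per/Nr1d_KO-labelled libraries. Hoxd4 was called lower in Per/Nr1d_KO than in those libraries, with a log2 fold change of -1.76 (SE 0.36, adjusted p = 0.00027 with the lowered limit, edgeR quasi-likelihood). Of the exon bases, 62.3% in Hoxd3 and 52.3% in Hoxd4 are shared with other genes on the same strand, so the split of reads between them is uncertain. Posterior genes made 99.9% ± 0.0410 (SD, n = 2) of the normalized counts of the HoxD cluster in Per/Nr1d_KO cells and 96.3% ± 0.692 in the Cry/Per/Nr1d_KO-labelled libraries.

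**Figure D4:**
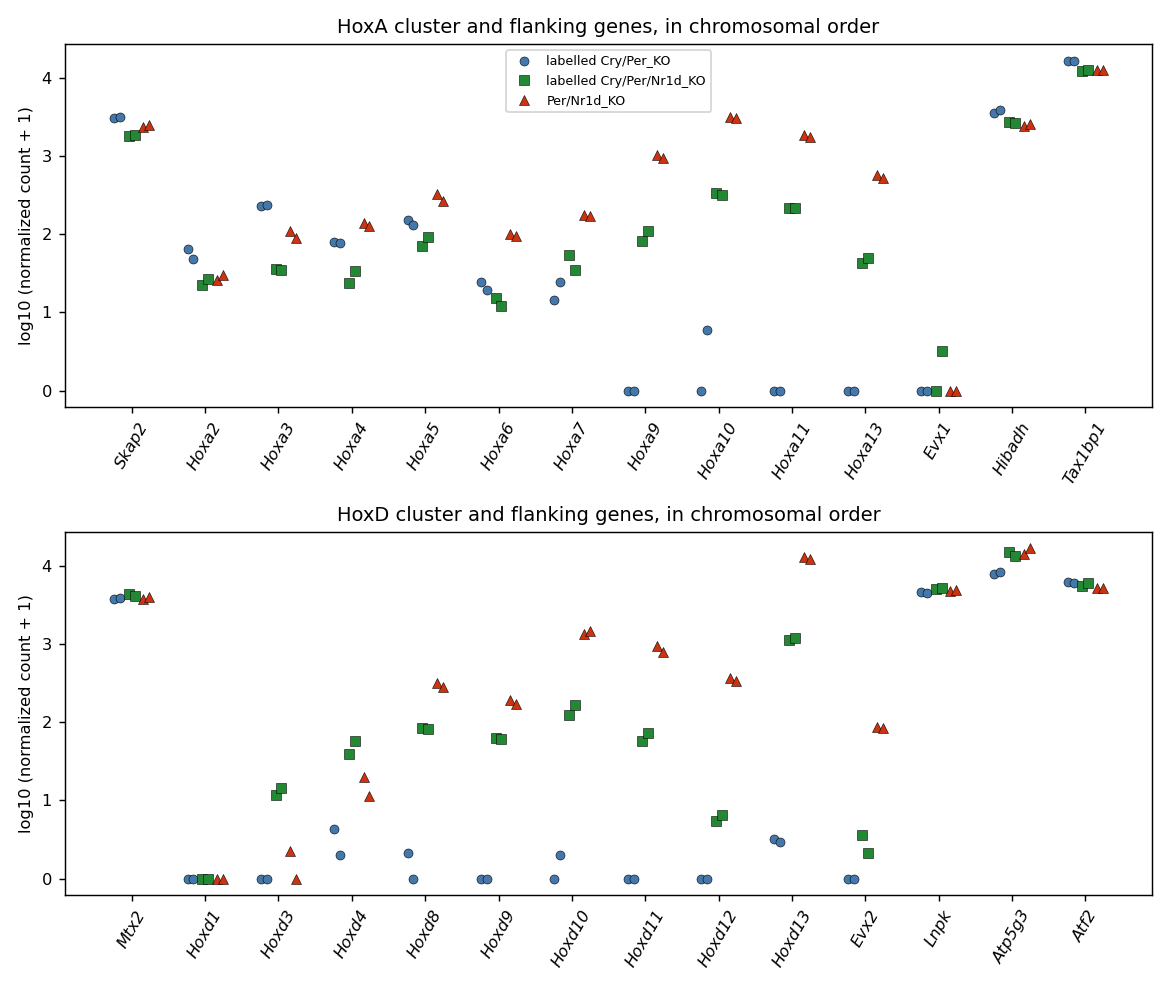
Normalized counts of HoxA and HoxD genes and genes around them, as log10 of the normalized count plus 1, in chromosomal order, with 1 point per library. In the Cry/Per_KO-labelled libraries, HoxA falls from Hoxa7 at 13.4 and 23.6 to Hoxa9 at 0, while Lnpk and Mtx2, outside HoxD, were not called in any comparison.

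Beyond Hoxd13 lies Evx2, a homeobox gene that shares the digit expression of its neighbours in the limb. It had 86.2 and 83.6 normalized counts in Per/Nr1d_KO cells, 2.66 and 1.11 in the Cry/Per/Nr1d_KO-labelled libraries, and 0 in both Cry/Per_KO-labelled libraries. Like Hoxd12 it was near the floor or at 0 outside Per/Nr1d_KO. It reached even the lowered limit only through the Per/Nr1d_KO libraries. Evx1, beyond Hoxa13, reached at most 2.22 normalized counts in any library. The first genes outside HoxD on either side, Lnpk and Mtx2, had 4578 to 5342 and 3832 to 4431 normalized counts over the 6 libraries. Their log2 fold changes between Per/Nr1d_KO and the Cry/Per/Nr1d_KO-labelled libraries were -0.09 and -0.14, and neither was called in any comparison. Around the 2 clusters, Skap2, Snx10, Hibadh, Tax1bp1, Atf2, Hnrnpa3 and Nfe2l2 were likewise not called in any of the 3 comparisons. Atp5g3 was called lower in the Cry/Per_KO-labelled libraries than in the Cry/Per/Nr1d_KO-labelled ones (-0.81) and higher in Per/Nr1d_KO than in the Cry/Per_KO-labelled libraries (0.93). Jazf1, on the HoxA side, was called in each comparison, at 1.58 for the Cry/Per_KO-labelled libraries and -1.35 for Per/Nr1d_KO, each against the Cry/Per/Nr1d_KO-labelled libraries.

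The TALE cofactors with which posterior Hox proteins bind DNA were represented by 8 genes, and 8 of 8 were tested. In Per/Nr1d_KO against the Cry/Per/Nr1d_KO-labelled libraries, 1 was called higher and 2 lower, where 11.3% and 9.35% of all genes tested were, with a median log2 fold change of -0.25 over the list and 0.01 over all genes tested. Meis2, whose product marks the proximal part of the limb bud, had 957 and 993 normalized counts in Per/Nr1d_KO cells, 2345 and 2721 in the Cry/Per/Nr1d_KO-labelled libraries, and 1754 and 1756 in the Cry/Per_KO-labelled ones, and was called lower in Per/Nr1d_KO (-1.37, adjusted p = 1.3e-10, edgeR quasi-likelihood). Meis3 had normalized counts of 78.6 and 72.6, 629 and 637, and 960.5 and 1003.5 with the groups in that order, and was called lower too (-3.08, adjusted p = 9.8e-13, edgeR quasi-likelihood). Pknox2 was called higher (0.81), and Pbx2, Pbx3, Pbx4, Meis1 and Pknox1 were not called. In the Cry/Per_KO-labelled libraries against the Cry/Per/Nr1d_KO-labelled ones, Pbx4 (1.49) and Pknox2 (1.31) were called higher and no cofactor lower, where 7.86% and 8.95% of all genes were, with a list median of 0.32. None of the 8 cofactors had the order of groups of the posterior Hox genes without overlap, and each had at least 72.2 normalized counts in every library.

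Of 25 further limb patterning genes, 15 had counts enough for testing. In Per/Nr1d_KO against the Cry/Per/Nr1d_KO-labelled libraries, 4 were called higher and 10 lower, where 11.3% and 9.35% of all genes tested were, with a median log2 fold change of -1.79 over the list and 0.01 over all genes tested. Sall1, a zinc finger gene mutated in a syndrome with malformed thumbs, had 3866 and 3542 normalized counts in Per/Nr1d_KO cells and 0 in the other 4 libraries, including the Cry/Per/Nr1d_KO-labelled ones in which the posterior Hox genes were present. It is among the 4 called higher, and like 6 of the posterior Hox genes it reached the mean for testing only through the Per/Nr1d_KO libraries. Alx4, a gene of the anterior limb bud, had 2.53 and 0 normalized counts in Per/Nr1d_KO cells, 8183 and 8223 in the Cry/Per/Nr1d_KO-labelled libraries, and 7674 and 7743 in the Cry/Per_KO-labelled ones. Shox2, a gene of the upper limb, had normalized counts of 8.87 and 1.58, 2815 and 2903, and 4316 and 4832 with the groups in that order. Both were thus near absent from Per/Nr1d_KO cells, and were called lower there than in the Cry/Per/Nr1d_KO-labelled libraries (adjusted p = 3.0e-18 for Alx4 and 5.7e-16 for Shox2, edgeR quasi-likelihood). In the Cry/Per_KO-labelled libraries against the Cry/Per/Nr1d_KO-labelled ones, 1 gene of the list was called higher and 5 lower, where 7.86% and 8.95% of all genes were, with a median of -0.09. The lower ones included Hand2, a gene of the posterior limb bud (adjusted p = 2.8e-11, edgeR quasi-likelihood). Hand2 had 0 normalized counts in both Cry/Per_KO-labelled libraries, 391 and 445 in the Cry/Per/Nr1d_KO-labelled ones, and 1185 and 978 in Per/Nr1d_KO cells, the order of the posterior Hox genes. The others called lower, Bmp4, Gli1, Jag1 and Epha3, did not all share this order. In Per/Nr1d_KO against the Cry/Per/Nr1d_KO-labelled libraries, Bmp4 was called higher, with a log2 fold change of 1.02. Gli1 (-1.53), Jag1 (-1.79) and Epha3 (-3.36) were called lower.

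Outside the Hox family, the genes whose levels over the 6 libraries ran closest to a posterior Hox gene were sought for Hoxa10 and Hoxd13, the posterior genes with the highest mean counts in their clusters, by the root mean square difference of centred log2 values. For Hoxa10 they were Bend4 (0.34), Arrdc4 (0.48) and Il1rn (0.60). Bend4 had normalized counts of 349.8 and 339 in the Cry/Per/Nr1d_KO-labelled libraries, 0 and 4.91 in the Cry/Per_KO-labelled ones, and 1886 and 2043 in Per/Nr1d_KO. For Hoxd13 they were Trim44 (0.45), Col2a1 (0.47), which encodes the collagen of cartilage, and Megf6 (0.68). Col2a1 had normalized counts of 2859 and 2427, 12.2 and 16.7, and 58125 and 58302 with the groups in that order. The points share their libraries, 3 lines stand behind them, and 17% of all genes tested have this order of groups.

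The libraries held 53764390 to 85927236 counts, and the 2 libraries of a line correlated at 0.998 across genes on the log2 scale. Of 10 fibroblast markers, Thy1 and Lum were at most 6.21 and 9.77 normalized counts in any library, while the summed level of the list was 837071 to 861499 in the Cry/Per_KO-labelled libraries, 886149 to 933781 in the Cry/Per/Nr1d_KO-labelled ones, and 1703876 to 1723078 in Per/Nr1d_KO. Fn1, Col1a1 and Col1a2 carried most of that sum. Of the 7 fibroblast markers tested, 4 were called higher and 3 lower in Per/Nr1d_KO than in the Cry/Per/Nr1d_KO-labelled libraries, where 11.3% and 9.35% of all genes were, the largest log2 fold changes being 5.72 for Col3a1, -1.61 for Pdgfra and 1.51 for Col1a1. Of the 6 epithelial markers the sums were 17.7 to 24.5 in the Cry/Per_KO-labelled libraries, 35.5 to 64.4 in the Cry/Per/Nr1d_KO-labelled ones and 137 to 141 in Per/Nr1d_KO, with, in the same order, those of the 4 endothelial markers 49.0 to 57.9, 125 to 131 and 113 to 138, those of the 4 leukocyte markers 146 to 163, 115 to 137 and 267 to 294, and those of the 5 muscle and neural markers 382 to 392, 1854 to 2042 and 757 to 786. Of these 19 markers of other cell types, 10 were at most 10 normalized counts in every library, among them Ptprc of leukocytes, Myod1 of muscle, Sox10 of neural crest, Krt14 of epidermis and Cdh5 of endothelium. The other 9 were above that in some library, Epcam reaching 33.3, Pecam1 22.6, Itgam 13.9, Tek 48.1, Kdr 93.3 and Des 110.3 normalized counts. Cd68 ranged from 109 to 276 and Tubb3 from 356 to 1959. Cdh1 of epithelia had 100.1 and 110.5 normalized counts in Per/Nr1d_KO and 7.99 to 27.8 in the other libraries. The part of such differences in the values of the posterior Hox genes was not tested.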

How the data were processed

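RNA was sequenced in 6 libraries of 3 mouse embryonic fibroblast lines. The authors aligned the reads to mm10 by STAR and assigned them to genes by featureCounts, and the deposited values are raw whole-number counts per Entrez Gene ID, 1 file a library. The submitters' processing notes also name DESeq2 1.22.2. The annotation, the strand setting and the treatment of multi-mapping reads are not given in the sources used here. The authors' deposited tables of their own comparisons, with fold changes and p-values, were not used.

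Each library was placed by its genotype label, which the name of its deposited counts contradicts for the Cry/Per_KO-labelled and Cry/Per/Nr1d_KO-labelled pairs. Between these pairs Cry1 and Arntl went with the names. Symbols, starts and promoter sequences came from RefSeq (GRCm38.p6), and exon lengths and overlaps from GENCODE vM21. edgeR 4.0.16 and limma 3.58.1 were run in R 4.3.3. All 6 libraries, holding 53764390 to 85927236 counts, entered one quasi-likelihood fit with TMM factors and 3 groups. The 11934 genes whose mean reached 100 normalized counts were tested, p-values were adjusted by Benjamini-Hochberg over all of them, and genes were called at an adjusted p under 0.05 and a log2 fold change beyond 0.81 in size. The standard error is the log2 fold change over the square root of F. Intervals are exact binomial (Clopper-Pearson) 95% intervals on counts, and like the floor of 3 counts they cover counting error only. At this depth the common biological coefficient of variation was 0.0393, and every SD rests on 2 values. Libraries of a line differed by more than sampling noise (chi-square per degree of freedom 8.07 to 16.8) and were kept as separate replicates.

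The members and the gene lists were chosen with earlier results of these data known. The text names every member, the genes around the clusters, the TALE cofactors, the mutated genes and the posterior HoxB and HoxC genes. Of each other list it names at most 3 tested genes by the size of their change in the comparison described. Beyond these, it names the limb patterning genes called lower together with Hand2 and the fibroblast markers that carried most of their sum. The 3 genes nearest in pattern to Hoxa10 and to Hoxd13 are named too. Markers named for being near 0, and Evx1 and Evx2 among the neighbours, are given whatever their test.

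Counts were simulated for Per/Nr1d_KO against Cry/Per/Nr1d_KO over 11934 genes, with 200 changed by a fold of 3. Of these, edgeR recovered 200 with 0 false calls and DESeq2 196. Between Cry/Per_KO and Cry/Per/Nr1d_KO no gene was simulated as changed. The fold of 3 lies beyond the limit for calling, so the recovery describes this simulation only. It does not show how calls behave for genes near 0 counts in a group, as the members were in the Cry/Per_KO-labelled libraries. Alternatives were DESeq2 1.42.0, the paper's limit on p, median-of-ratios size factors, other expression filters, no fold limit, glmTreat, only the compared groups, a replicate block, leaving out each library, and exchanged labels. Long noncoding RNAs of the clusters other than Hoxa11os were not analysed here, and a few further genes are not reported here. Figures were drawn with Python 3.11.15.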

Additional observations from a re-analysis of the deposited data

How the results depend on the processing

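With the labels of the pairs exchanged, the 9 genes tested were called higher, not lower, in Cry/Per_KO than in Cry/Per/Nr1d_KO (9 calls), with log2 fold changes of 9.57 for Hoxa9, 6.91 for Hoxa10, 10.8 for Hoxa11, 8.51 for Hoxa13, 6.99 for Hoxd8, 7.79 for Hoxd10, 8.998 for Hoxd11, 5.34 for Hoxd12 and 9.03 for Hoxd13. The comparisons with Per/Nr1d_KO kept 9 calls higher. At the paper's limit (DESeq2, adjusted p under 1e-22), 2 of the 9 were called between the Cry/Per_KO-labelled and Cry/Per/Nr1d_KO-labelled libraries, 8 between Per/Nr1d_KO and the Cry/Per/Nr1d_KO-labelled libraries, and 2 between Per/Nr1d_KO and the Cry/Per_KO-labelled libraries. In both comparisons with 2 calls they were Hoxa10 and Hoxd13, and Hoxd8 was the gene lost from the 8. The directions did not change. Over all genes, calls at that limit numbered 1147 in the Cry/Per_KO-labelled against the Cry/Per/Nr1d_KO-labelled libraries (479 higher, 668 lower), 1801 in Per/Nr1d_KO against the latter (993 higher, 808 lower) and 2589 against the former (1364 higher, 1225 lower).

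Lowering the filter to a mean of 10 gave 10 of 10 members called in each comparison, and over all genes 3311 calls in the Cry/Per_KO-labelled against the Cry/Per/Nr1d_KO-labelled libraries, 3912 in Per/Nr1d_KO against the latter and 4996 against the former. No filter beyond having a count gave 3808, 4576 and 5590 over all genes in these comparisons, in that order, and no fold limit 9118, 9042 and 9793. Median-of-ratios size factors, DESeq2 at the usual adjusted p, glmTreat and a fit of the compared groups each called 9 members in every comparison. Leaving out 1 library gave 7 to 9 members in each comparison, the 7 arising without either Per/Nr1d_KO library because Hoxd8 and Hoxd12 then fell under the limit for testing. Replicate numbers did not pair the libraries, since deviations of same-numbered libraries correlated at -0.211, -0.102 and -0.024. With the replicate block, 9 members were called in each comparison, and 2002, 2468 and 3457 genes over all. Depth limits the values in the Cry/Per_KO-labelled libraries, where 11 counts in all allow bounds or wide ratios.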

Other observations

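The posterior genes of the HoxB and HoxC clusters had another distribution than the posterior Hoxa and Hoxd genes. The 8 genes Hoxb9, Hoxb13, Hoxc8, Hoxc9, Hoxc10, Hoxc11, Hoxc12 and Hoxc13 summed to 2307 and 2477 normalized counts in the Cry/Per/Nr1d_KO-labelled libraries, to 67.9 and 69.7 in the Cry/Per_KO-labelled ones, and to 1.58 to 5.07 in Per/Nr1d_KO cells. Hoxb9 had 927 and 1004 normalized counts in the Cry/Per/Nr1d_KO-labelled libraries, 3.34 and 0.98 in the Cry/Per_KO-labelled ones, and 2.53 and 0.79 in Per/Nr1d_KO cells. Hoxb13 had normalized counts of 364.9 and 364.3, 1.11 and 0.98, and 0 and 0 with the groups in that order. Hoxc13, a gene of hair and nail, had normalized counts of 394 and 436, 57.9 and 65.8, and 0 and 0.79 in the same order. Each of the 8 genes had at least 59.97 normalized counts in the Cry/Per/Nr1d_KO-labelled libraries and at most 2.53 in Per/Nr1d_KO cells. Hoxb9, Hoxb13 and Hoxc13 alone had counts enough for testing, and only through the libraries in which they are high, so their calls are not counted here. By the names of their counts, the libraries with these genes are Cry/Per_KO.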
